A study of Homo sapiens with 52 samples.

Results

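WI-38 cells, a human lung fibroblast line that divides a limited number of times in culture, were examined 16 days after a pulse of high potassium. The cells had spent 24 h in medium with 75 mM KCl, were washed and were then grown in normal medium. The labels call the outcome calcium influx-induced senescence, and the group is called Ca-Sen here. The comparison took every gene whose mean over the day 16 and untreated libraries, the baseMean of that table, was at least 10, which gave 14530 of 59408 listed genes. Per-library read counts could be recovered for 14529 of them (TM9SF3 was the exception), so 14529 genes were tested.

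Each group had 2 libraries, made by mRNA-seq from bulk cultures. Untreated cells were young cultures (population doubling level 32 to 46) with no day in their labels, so time in culture and the KCl pulse cannot be told apart. Ca-Sen day 16 was also set beside Ca-Sen day 8, beside PMD-Sen day 16 (24 h of 0.0090% sodium dodecyl sulfate, a detergent that damages the plasma membrane) and beside DDR-Sen day 16 (24 h of 250 nM doxorubicin, which breaks DNA). RS, cells passaged until they stopped dividing at about population doubling level 52, is shown for its levels only. The recovered read counts summed to 28632059 and 27402983 for the Ca-Sen day 16 libraries and 18965199 and 15253015 for the untreated ones. The spread within a pair beyond that of read counting, as a typical coefficient of variation of well-counted genes, was 1.6% at day 16 and 4.3% in Untreated. Observed differences between paired libraries also hold the counting noise, and single genes could differ by much more. The libraries of a pair carry no replicate number and are called a and b, and the labels do not say that they came from separate cultures, so p-values measure the spread between these libraries.

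Cellular senescence is a lasting exit from the cell cycle. It is usually recognised by the CDK inhibitors p21 and p16, loss of the nuclear lamina protein lamin B1, a larger lysosomal compartment and a secretome of cytokines, proteases and matrix proteins, the SASP. High external potassium depolarises the plasma membrane and opens voltage-gated calcium channels, and the calcium that enters acts through calcineurin, kinases and calcium-dependent repair of the membrane.

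Against Untreated, 2546 of 14529 genes (17.5%) passed an adjusted p of 0.05, of which 1247 (8.58%) were higher and 1299 (8.94%) were lower at day 16. The libraries of the groups did not overlap for 8879 genes (61.1%), of which 4376 (30.1%) were higher and 4503 (31.0%) lower. The changes were small, with a median absolute log2 fold change of 0.461 among called genes. A change of at least 1 on the log2 scale was reached by 200 of the higher and 204 of the lower genes. Without library a or b of Ca-Sen day 16, where the error rests on the untreated pair alone, the calls fell to 581 and 617, and without library a or b of Untreated they came to 3904 and 3852. Of 209 genes picked by the naming rule, 102 lost their call without Ca-Sen library a and 102 without library b.

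**Figure D1:**
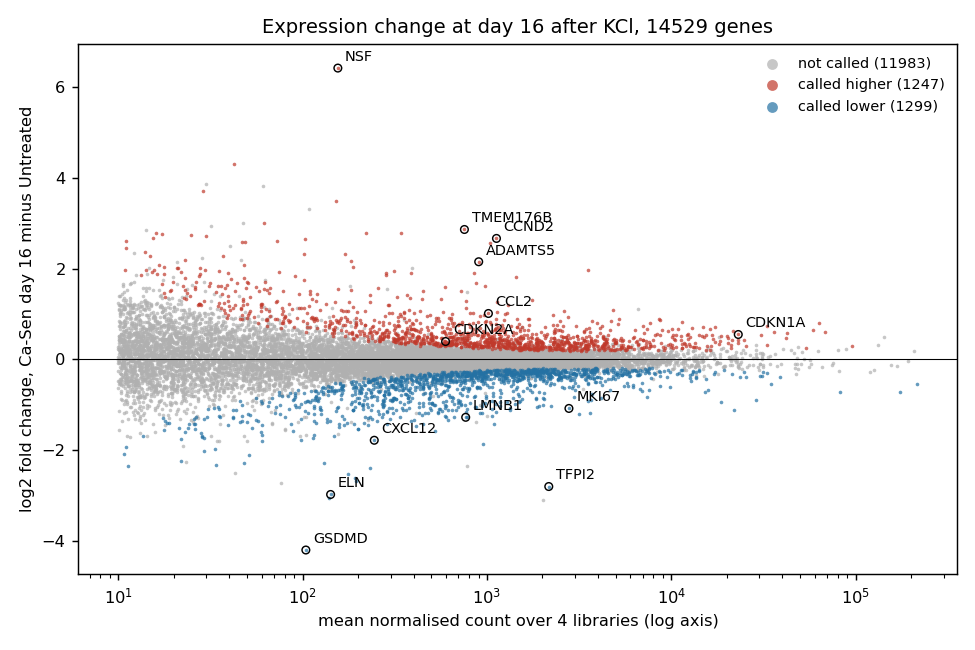
Each point is 1 of 14529 genes, with the mean normalised count of the 4 libraries on a log axis and the log2 fold change of Ca-Sen day 16 over Untreated on the other axis, and called genes in colour. Named genes are labelled. CCND2 lies at 2.66 and LMNB1 at -1.27.

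Cell cycle genes made up the most uniform change. Of 48 tested genes of mitosis and cytokinesis, 47 (97.9%) were lower at day 16, with a median log2 fold change of -1.09, and of 44 genes of DNA replication 41 (93.2%) were lower, with a median of -0.80. Over all tested genes 8.94% were lower and the median was 0.00. The counts for mitosis stayed between 42 and 48 when any 1 library was left out, and those for DNA replication between 27 (without Ca-Sen library a) and 40. These are bulk cultures, so fewer cycling cells and less mRNA per cycling cell cannot be told apart.

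Promoters of replication and mitosis genes are shown because the 2 groups of genes differ in how many hold the CHR element, a motif near the start site. Among genes called lower that had a RefSeq promoter, they are those of the 2 mitosis genes with the largest falls whose 250 bases held both motifs described here, and of the 2 replication genes with the largest falls whose 250 bases held a CCAAT box, so the choice itself used the motifs. Cell cycle genes are repressed outside their phase by pocket-protein complexes that bind near the start site, and the CHR element (TTTGAA, with TTCGAA as a variant) and the CCAAT box are frequent in promoters of genes used in mitosis. The sequences are from RefSeq (GRCh38.p14), 250 bases before the start site, 5′ to 3′ on the gene's strand, with capitals marking both motifs on either strand.
CDC45, chr22:19479670-19479919, plus strand: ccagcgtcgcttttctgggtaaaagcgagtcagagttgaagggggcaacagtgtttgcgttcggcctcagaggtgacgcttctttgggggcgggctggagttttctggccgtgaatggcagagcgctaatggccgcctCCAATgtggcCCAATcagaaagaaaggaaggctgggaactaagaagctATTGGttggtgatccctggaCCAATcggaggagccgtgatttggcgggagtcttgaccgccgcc
MCM10, chr10:13161308-13161557, plus strand: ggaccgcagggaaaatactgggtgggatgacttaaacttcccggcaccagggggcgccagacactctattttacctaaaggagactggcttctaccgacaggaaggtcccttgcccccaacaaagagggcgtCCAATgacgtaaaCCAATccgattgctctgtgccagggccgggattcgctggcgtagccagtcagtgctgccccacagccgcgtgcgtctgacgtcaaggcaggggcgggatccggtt
HMMR, chr5:163460382-163460631, plus strand: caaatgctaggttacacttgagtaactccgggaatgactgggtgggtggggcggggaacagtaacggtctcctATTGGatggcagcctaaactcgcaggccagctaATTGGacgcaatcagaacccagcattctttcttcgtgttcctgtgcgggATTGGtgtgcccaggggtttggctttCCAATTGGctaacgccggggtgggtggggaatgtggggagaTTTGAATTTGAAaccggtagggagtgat
DLGAP5, chr14:55191586-55191835, minus strand: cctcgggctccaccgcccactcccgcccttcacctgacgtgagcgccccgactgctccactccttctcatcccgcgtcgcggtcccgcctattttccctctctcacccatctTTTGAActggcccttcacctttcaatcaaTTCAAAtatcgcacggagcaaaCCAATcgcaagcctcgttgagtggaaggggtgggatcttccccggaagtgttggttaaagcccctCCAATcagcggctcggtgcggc
The search window ran from 250 bases before to 50 bases after the start and covered both strands. A CHR element was present in 70.0% of the promoters of the mitosis genes called lower (40 of 47 matched), in 5.7% of those of the replication genes called lower (35 of 41 matched) and in 16.4% of all 35116 promoters. The CCAAT box was present in 72.5%, 60.0% and 34.6% of the same sets, and both motifs in 52.5%, 5.7% and 6.4%. In the 10380 promoters matched to tested genes the CHR element was present in 11.3%, the CCAAT box in 36.4% and both in 4.8%. A match is a description of the letters and does not show a bound factor.

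Among the genes that fire and build replication origins, CDC45, a part of the replicative helicase, had 316 and 277 normalised counts in Untreated and 114 and 90.0 at day 16 (log2 fold change -1.53, SE 0.16, adjusted p = 0.00103). MCM10, which helps to start the helicase, went from 357 and 273 to 129 and 108 (-1.39, SE 0.17, adjusted p = 0.00182). Every day 16 library was below every untreated one for both genes. ORC1, which marks origins, fell by 1.30, GINS2 and the polymerase subunit POLE2 fell by 1.09 and 1.10, and TK1, the S-phase thymidine kinase, fell by 1.10 on the log2 scale.

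Among mitotic genes the largest falls were those of HMMR, a spindle protein, from 660 and 652 to 223 and 269 normalised counts (-1.42, SE 0.11, adjusted p = 0.000329), and UBE2C, the ubiquitin-conjugating enzyme of the anaphase-promoting complex, from 566 and 549 to 245 and 193 (-1.36, SE 0.13, adjusted p = 0.000665). The kinesin KIF18B, the centrosomal kinase NEK2, the spindle protein DLGAP5 and cyclin A (CCNA2) were 2.41 to 2.49-fold lower. MKI67, the gene of the Ki-67 proliferation marker, was 2.12-fold lower, with 4247 and 3321 counts in Untreated and 1650 and 1918 at day 16. Over the 48 genes the log2 fold changes ran from -1.42 to -0.45, and the groups did not overlap for any gene named here.

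The genes that set the entry into S phase split. CCND2, the gene of cyclin D2, had 315 and 298 normalised counts in Untreated and 2050 and 1842 at day 16, 6.35-fold higher (log2 fold change 2.66, SE 0.08, adjusted p = 1.12e-05). The E2F family member E2F8, cyclin E2 (CCNE2), the DREAM subunit LIN9, the pocket protein gene RBL1 and E2F1 fell by 1.27, 1.04, 0.92, 0.85 and 0.80. Of the 19 genes of this list 3 rose and 7 fell, with a median of -0.16, and 2 rose and 3 fell without either Ca-Sen library.

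Of 8 genes listed as CDK inhibitors 3 were higher and 2 were lower. CDKN1A, the gene of p21, had 18036 and 19460 normalised counts in Untreated and 28274 and 26562 at day 16, 1.46-fold higher (0.55, SE 0.07, adjusted p = 0.00217). CDKN2A, which encodes p16 and ARF, had 516 and 514 against 697 and 658 (0.39, SE 0.08, adjusted p = 0.0134), and CDKN2B, the gene of p15, had 279 and 216 against 397 and 431 (0.75, SE 0.14, adjusted p = 0.00968). The day 16 libraries were above the untreated ones for all 3 genes, but the list held only 1 call of this direction without either Ca-Sen library. CDKN2C and CDKN3, whose transcripts are themselves cell cycle regulated, fell by 1.11 and 1.30. CDKN1B (-0.26, adjusted p = 0.0662), CDKN2D (0.18, adjusted p = 0.365) and CDKN1C (-0.37, adjusted p = 0.837) did not pass, and CDKN1C had 2.32 to 26.8 counts per library.

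**Figure D2:**
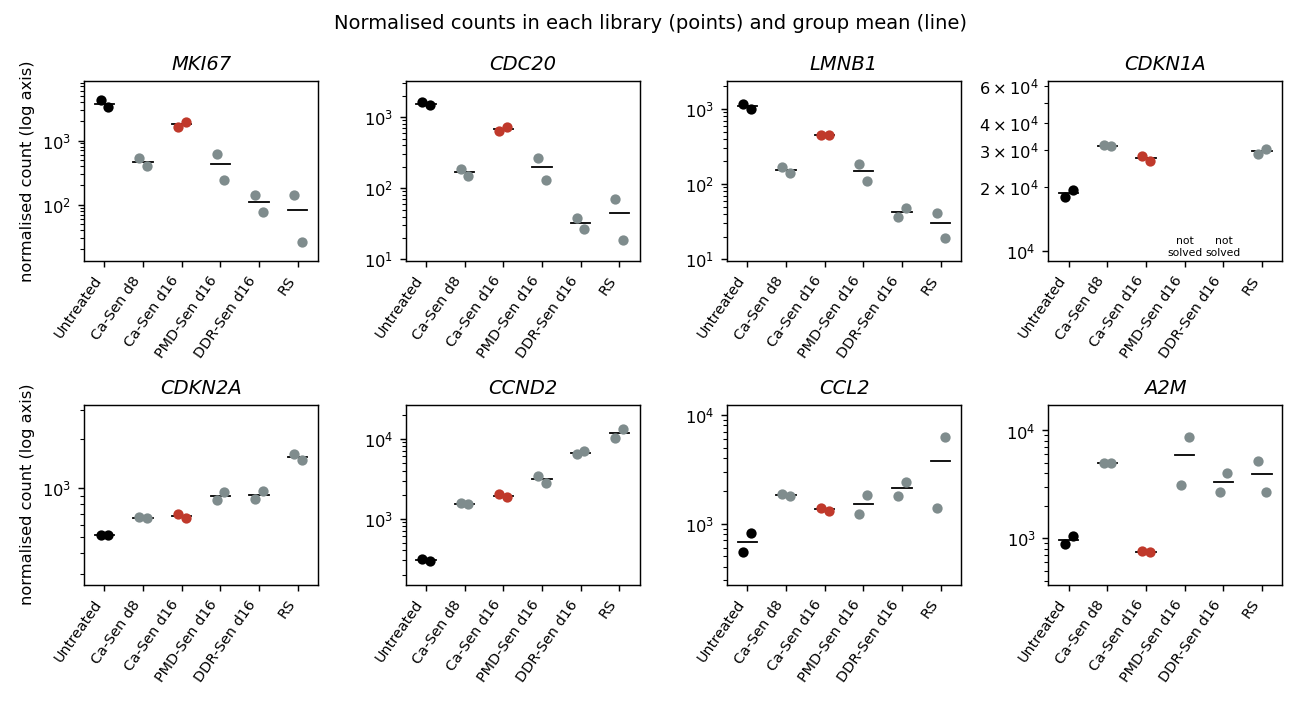
Normalised counts of 8 genes, scaled over all 26 libraries, in Untreated, Ca-Sen day 8, Ca-Sen day 16, PMD-Sen day 16, DDR-Sen day 16 and RS. Points are libraries (2 per group) and lines are group means. CDKN1A could not be solved per library in PMD-Sen and DDR-Sen. MKI67 at Ca-Sen day 16 (1644 and 1924) lies between Untreated and the other senescent groups.

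Of 20 genes of the nuclear lamina and senescence-associated chromatin 13 were lower and 1 was higher (median -0.48). LMNB1, the gene of lamin B1, fell from 1175 and 997 normalised counts to 453 and 442 (log2 fold change -1.27, SE 0.09, adjusted p = 0.000277). HMGB2 and HMGB1, chromatin proteins of the high mobility group, fell by 0.98 and 0.68, the lamina-associated TMPO by 0.94, the histone variant gene H2AZ1 by 0.92 and the Polycomb methyltransferase gene EZH2 by 0.88. LMNA, HMGA1, EMD, SUZ12, SUV39H1 and MACROH2A1 did not pass, with log2 fold changes between -0.28 and -0.11. LMNA, which encodes lamins A and C, had 31807 and 30296 normalised counts in Untreated and 28162 and 27160 at day 16.

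Transcripts annotated as replication-dependent histones went the opposite way to replication genes. Of 37 listed genes 15 were tested, and 10 of these were higher (median 0.71). H1-2, a linker histone, had 389 and 511 normalised counts in Untreated and 1133 and 1030 at day 16 (1.27, SE 0.13, adjusted p = 0.000839), and H3C10 had 28.9 and 25.4 against 82.1 and 86.9 (1.60, SE 0.23, adjusted p = 0.00393). These mRNAs normally end in a stem-loop without a poly(A) tail, and what share of each was polyadenylated was not measured. Without either Ca-Sen library 3 genes were called higher.

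The cytokine part of the SASP was mixed. Of 25 listed cytokines, chemokines and their surface partners 13 were tested, 4 were higher and 2 were lower, with a median of -0.02. VCAM1, an adhesion receptor for leukocytes, rose from 812 and 496 to 2293 and 2181 normalised counts (1.82, SE 0.19, adjusted p = 0.00103), and CCL2, a monocyte chemokine, from 549 and 819 to 1409 and 1296 (1.01, SE 0.16, adjusted p = 0.00591). The chemokine gene CXCL12 moved the other way, from 351 and 408 to 119 and 101 (-1.78, SE 0.14, adjusted p = 0.000367), and IL11 fell by 0.43. IL6 did not pass (-0.02, SE 0.26, adjusted p = 0.962), with 53.3 and 83.3 counts in Untreated and 70.6 and 60.8 at day 16. Without Ca-Sen library a or b the list held 1 or 2 genes called higher and 1 called lower. GDF15, a stress cytokine, was 1.23-fold higher (874 and 799 against 1009 and 1046, adjusted p = 0.0303).

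Complement and interferon-stimulated genes were raised in part. Of 14 complement genes 5 were higher (2 without either Ca-Sen library), among them C7, a part of the membrane attack complex (54.4 and 46.6 against 117 and 120 normalised counts, adjusted p = 0.00545), and CD46, which protects cells from complement (1.38-fold, adjusted p = 0.00149). C4B and C1R were also called higher, but C4B shares reads with its copy C4A, and C1R differed at least 4-fold between paired libraries in 3 of 8 groups that entered no test. Of 28 interferon-stimulated genes 9 were higher (median 0.45), or 6 and 3 without Ca-Sen library a and b, with IFI6 2.06-fold, SAMD9L 1.83-fold and IFITM3, a restriction factor of virus entry, 1.56-fold. For IFI6 the day 16 libraries differed from each other (892 and 1277 normalised counts), and both were above the untreated 579 and 476. White blood cell markers were low: 6 of 12 were at 0 in all 4 libraries, the summed level was 27.8 and 28.2 in Untreated and 63.7 and 57.7 at day 16, and CD14 was the only one tested (1.24, adjusted p = 0.0221). Their part in the complement and interferon values was not tested.

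Of 26 collagen genes 9 were lower and 1 was higher (median -0.26), and 4 were lower without either Ca-Sen library. The basement membrane chains COL4A1 and COL4A2 fell by 0.94 and 0.88, COL5A3 by 1.50, COL15A1 by 1.41, and COL6A3, a microfibrillar collagen, by 0.71. ELN, the gene of elastin, was 8.34-fold lower, with 188 and 319 normalised counts in Untreated and 29.9 and 30.8 at day 16 (log2 fold change -2.97, SE 0.26, adjusted p = 0.000515). The proteoglycan genes BGN and VCAN were 2.06-fold and 1.86-fold lower and periostin (POSTN) 1.95-fold lower. TNXB, of the tenascin family, had 1.16 and 7.06 counts in Untreated and 52.9 and 53.7 at day 16 (3.70, SE 0.62, adjusted p = 0.00669), and its nearly identical partial copy can share its reads.

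Matrix proteases and their inhibitors were divided, with 4 of 24 higher and 10 lower (median -0.28), or 3 higher and 5 or 4 lower without Ca-Sen library a or b. ADAMTS5, an aggrecan-cleaving protease, rose from 332 and 330 to 1498 and 1447 normalised counts, 4.44-fold (2.15, SE 0.07, adjusted p = 1.50e-05), and ADAMTS9 was 1.89-fold higher. The stromelysin gene MMP3, the inhibitor genes TIMP1 and SERPINF1 and the urokinase receptor gene PLAUR fell by 1.57, 0.66, 0.83 and 0.63. Smooth muscle actin ACTA2 fell by 0.52 and tropomyosin TPM1 by 0.42. Of the 21 genes of their contractile list 4 (19.0%) were lower and 1 (4.8%) was higher, beside 8.94% and 8.58% of all tested genes. Without either Ca-Sen library 1 was lower and 0 were higher.

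As a sum the fibroblast markers were abundant in every library, with 288140 normalised counts of COL1A1 and 251013 of FN1 in Untreated library a. Of 16 listed 15 were tested, and TBX4 was not, with 5 reads in Untreated and 14 at day 16. Of the 15 tested, 3 rose and 3 fell, and fewer were called without either Ca-Sen library. LUM, PDGFRA and DCN were 1.67, 1.58 and 1.50-fold higher, whereas FN1, FAP and COL1A1 were 1.67, 1.94 and 1.46-fold lower. Their summed level was 885435 and 695496 normalised counts in Untreated and 632325 and 634520 at day 16. Of 13 epithelial markers 5, among them KRT5, SFTPC and NKX2-1, and the endothelial markers CDH5 and ERG were at 0 in all 4 libraries. For the epithelial list the sum was 2561 to 2975 in Untreated and 2415 to 2592 at day 16. For the endothelial list it was 2151 to 2318 in Untreated and 2726 to 2779 at day 16. TEK made up most of the endothelial sum, with 2099 and 2263 normalised counts in Untreated and 2677 and 2718 at day 16, a rise of 0.31. Of the 9 listed endothelial markers 2 were tested.

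Of 32 genes of calcium transport and calcineurin feedback 10 were higher (median 0.12). The transcription factor gene NFATC2, which calcineurin activates, had 20.8 and 19.8 normalised counts in Untreated and 65.2 and 69.5 at day 16 (1.68, SE 0.26, adjusted p = 0.00474). TRPV2, a cation channel, rose from 945 and 1074 to 2536 and 2426 (1.30, SE 0.08, adjusted p = 0.000191). The inositol trisphosphate receptor genes ITPR1 and ITPR2 were 2.29-fold and 1.65-fold higher, the voltage-gated channel gene CACNA1A 2.03-fold and ORAI3, a store-operated channel, 1.33-fold. Without either Ca-Sen library 3 of the 32 were called.

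Of 19 genes of osmotic and ion balance 5 were higher and 3 lower, or 3 or 2 higher and 1 lower without Ca-Sen library a or b. SLC5A3, the myo-inositol transporter that cells raise in hypertonic medium, had 1346 and 1164 normalised counts in Untreated, 11491 and 12746 at the end of the KCl pulse and 1734 and 1801 at day 16, scaled over all 26 libraries of the series (0.50 over Untreated, SE 0.08, adjusted p = 0.00588). Its regulator NFAT5 rose by 0.48, the taurine transporter gene SLC6A6 by 0.73, the inward rectifier KCNJ2 by 0.70 and the water channel AQP1 by 0.85, whereas the potassium channel gene KCNK2 fell by 1.52. Immediate early genes split, with 3 of 24 higher and 7 lower (1 higher and 3 or 2 lower without Ca-Sen library a or b). As shares of the 24, 12.5% were higher and 29.2% lower, beside 8.58% and 8.94% of all tested genes. FOSB had 26.6 and 19.8 against 75.2 and 79.0 normalised counts (1.70, SE 0.26, adjusted p = 0.00499), while EGR1 and KLF2 fell by 1.00 and 0.97.

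Of 27 tested membrane repair genes 0 passed with limma on log values or with limma voom, 4 of them had an unadjusted p under 0.05, and the log2 fold changes ran from -0.21 to 0.22 (median 0.04). With a spread shared by all Ca-Sen days 2 were higher and 1 lower, and 3 and 1 were higher without Untreated library a and b. CHMP4B, the ESCRT-III subunit that pinches off damaged membrane, had 2756 and 2777 normalised counts in Untreated and 2760 and 2580 at day 16 (-0.05, SE 0.06, adjusted p = 0.591).

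Of 28 lysosomal genes 11 were higher (median 0.20), by small amounts. The calcium channel gene MCOLN1 and the protease gene TPP1 rose by 0.50 each, cathepsin D (CTSD) by 0.39 and GLB1, the source of senescence-associated beta-galactosidase activity, by 0.27, from 1941 and 1823 to 2281 and 2253 normalised counts. None of the 11 calls was made without either Ca-Sen library. Of 29 sterol and fatty acid synthesis genes 10 were higher (median 0.36), with DHCR7 1.64-fold, MSMO1 1.57-fold and HMGCS1 1.38-fold. The untreated libraries differed from each other for these genes (DHCR7 1218 and 841, against 1735 and 1640 at day 16), and the count ran from 0 without Ca-Sen library a to 24 without Untreated library a.

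Of 16 genes of the unfolded protein response 8 were lower and 0 higher (median -0.20). Among the 8 were the endoplasmic reticulum chaperone genes HSPA5, HSP90B1, MANF and SDF2L1, which fell by 0.39, 0.40, 0.41 and 0.44. The count was 0 without either Ca-Sen library and 8 and 10 without either untreated one. The genes of the mitochondrial chaperonin, HSPD1 and HSPE1, were each 1.43-fold lower. Of 21 genes of the integrated stress response 6 were lower and 2 higher, or 3 or 1 lower and 2 or 1 higher without Ca-Sen library a or b. As shares of the 21, 28.6% were lower and 9.5% higher, beside 8.94% and 8.58% of all tested genes. The serine synthesis gene PHGDH, the amino acid transporter gene SLC7A5 and the one-carbon gene MTHFD2 were 1.96, 1.84 and 1.57-fold lower. ATF3 and NUPR1 were 1.75-fold and 1.46-fold higher. Of 17 NRF2 antioxidant genes 5 were higher, 0 were lower and 12 were not called (median 0.20). Among the 5, the iron storage genes FTL and FTH1 and the reductase gene AKR1C1 were 1.75, 1.55 and 2.19-fold higher. Of 13 mitochondrially encoded genes 6 were higher, by 0.24 to 0.33, and these calls needed both Ca-Sen libraries. Among nuclear genes of oxidative phosphorylation 31 of 34 did not pass, and among ribosomal protein genes 50 of 53 did not. Over all tested genes 17.5% passed.

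**Figure D3:**
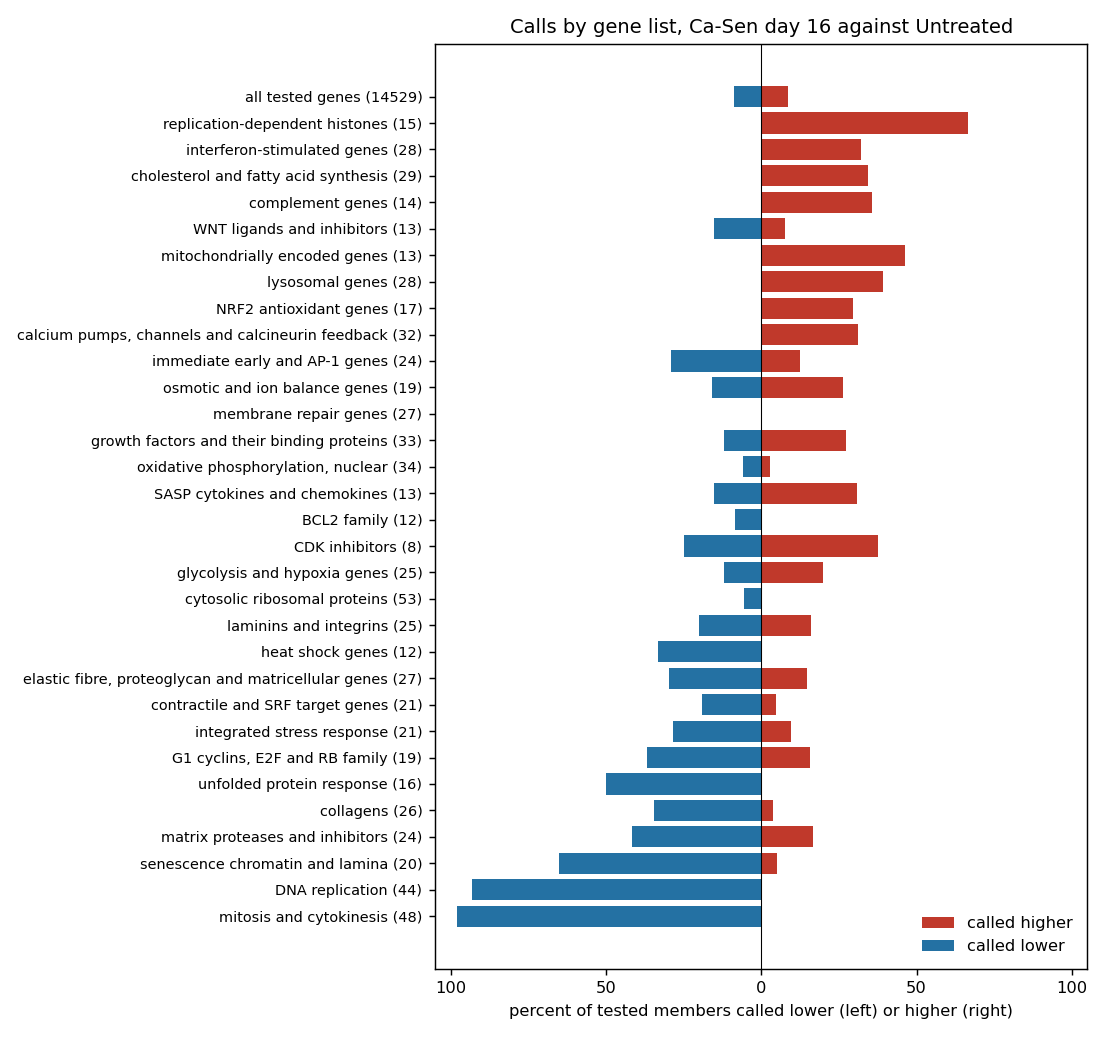
Percent of the tested genes of each list shown that were called higher or lower at Ca-Sen day 16 against Untreated. Over all tested genes 8.58% were higher and 8.94% lower. Mitosis and DNA replication stand apart with 97.9% and 93.2% lower.

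Of the 10 largest rises among well-counted genes, TMEM176B and TMEM176A, a neighbouring pair of genes for ion channel-like membrane proteins, were 7.21-fold and 5.89-fold higher. TMEM176B had 211 and 157 normalised counts in Untreated and 1389 and 1262 at day 16 (2.86, SE 0.14, adjusted p = 7.06e-05). KCND3, a voltage-gated potassium channel, had 45.1 and 66.4 against 416 and 356 (2.79, SE 0.20, adjusted p = 0.000277), and TMEM178B had 84.5 and 87.5 against 624 and 567 (2.78, SE 0.12, adjusted p = 5.64e-05). CCND2 followed, and the other 5 rises were NSF, ELP5, MICA, TINF2 and C1R. Of these, ELP5 and MICA had wide gaps within the untreated pair, at 9.26 and 56.5 and at 17.4 and 40.9 normalised counts. NSF, TINF2 and C1R differed at least 4-fold between paired libraries in 4, 2 and 3 of the 8 groups that entered no test. NSF ranged from 1.8 to 517 normalised counts over 26 libraries.

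Such genes were also among the 10 largest falls. GSDMD, GTPBP6, LSM14A and GMPR2 each differed at least 4-fold within pairs in 3 to 5 of those 8 groups, and GSDMD had from 4.4 to 214 normalised counts over the 26 libraries. Other falls were ELN, TFPI2 (an inhibitor of serine proteases, 7.65-fold), G0S2 (an inhibitor of fat breakdown, 6.60-fold), GAL (the neuropeptide galanin, 5.15-fold) and RN7SL1 (the RNA of the signal recognition particle, 3.64-fold). RN7SL1 had 1430 and 1550 counts in Untreated and 435 and 384 at day 16. It is not an mRNA, and how its reads came into mRNA-seq libraries was not measured. TFPI2 had 2224 and 5433 in Untreated, a wide gap within the group, and 486 and 515 at day 16.

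Against Ca-Sen day 8, 4535 of 14529 genes (31.2%) were called, 2418 higher (16.6%) and 2117 lower (14.6%) at day 16. The gene filter used the Ca-Sen day 16 and untreated libraries only. Genes that reach it only through day 8, PMD-Sen or DDR-Sen were therefore not tested, which can tilt the split into higher and lower in these comparisons. Leaving out library a or b gave 2123 or 2322 calls for Ca-Sen day 16 and 2528 or 1967 for Ca-Sen day 8. All 48 mitosis genes and 36 of 44 replication genes were higher at day 16 than at day 8, with medians of 1.80 and 0.69. The median level of the mitosis genes was 15.3% and 12.7% of the untreated mean in the day 8 libraries and 46.5% and 47.1% in the day 16 libraries. MKI67 had 538 and 402 normalised counts at day 8 against 1644 and 1924 at day 16 (1.94, SE 0.15, adjusted p = 5.94e-05), on a scale over all 26 libraries. LMNB1 was higher as well, with 171 and 139 against 451 and 444 (1.53, SE 0.12, adjusted p = 5.27e-05).

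Most complement, cytokine and collagen genes were lower at day 16 than at day 8. This held for 12 of 14 complement genes (median -0.90), 8 of 13 cytokine genes (median -1.05) and 17 of 26 collagens (median -0.40), with 1, 1 and 2 higher. Of 27 elastic fibre, proteoglycan and matricellular genes 12 were lower and 2 higher (median -0.30). Growth factors were divided, with 11 of 33 higher and 11 lower (median -0.06). Of 24 matrix proteases and inhibitors 6 were higher and 12 lower (median -0.12). IL11 rose by 1.21 and MMP3 by 1.53 after day 8. Outside the secretome, 15 of 28 lysosomal genes were lower and 3 higher (median -0.21). Among called genes with a baseMean of at least 100, the largest fall was that of A2M, the protease inhibitor alpha-2-macroglobulin, from 4991 and 5010 normalised counts at day 8 to 755 and 738 at day 16 (-2.74, SE 0.08, adjusted p = 1.21e-06). DEPP1, a FOXO target, fell from 849 and 1027 to 189 and 155 (-2.44, SE 0.13, adjusted p = 1.37e-05). CXCL12 fell from 525 and 656 to 118 and 101 (-2.41, SE 0.14, adjusted p = 1.82e-05) and IL6 from 161 and 158 to 70.3 and 61.0 (-1.27, SE 0.22, adjusted p = 0.00343). In Untreated A2M had 884 and 1054 counts, DEPP1 128 and 136 and CXCL12 351 and 408. At day 16 A2M and CXCL12 were called lower than Untreated (-0.37 and -1.78), and DEPP1 did not pass (0.37, adjusted p = 0.146).

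CCND2 rose after day 8, from 1582 and 1511 to 2042 and 1847 normalised counts (0.33, SE 0.07, adjusted p = 0.00755), and ADAMTS5 was not called (1405 and 1414 against 1492 and 1451, adjusted p = 0.416). CDKN1A was slightly lower at day 16 (-0.19, SE 0.06, adjusted p = 0.0355), and CDKN2A was not called (0.04, SE 0.07, adjusted p = 0.701). NFATC2 had 7.9 and 4.2 normalised counts at day 8 and 64.9 and 69.7 at day 16 (3.36, SE 0.35, adjusted p = 0.000247), and its day 8 libraries lay below the untreated 20.8 and 19.8. SQSTM1 gave the most extreme adjusted p among named genes here (4.28, adjusted p = 2.56e-08), but it differed at least 4-fold within pairs in 6 of 8 groups and ranged from 108 to 6232 counts over the series.

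**Figure D4:**
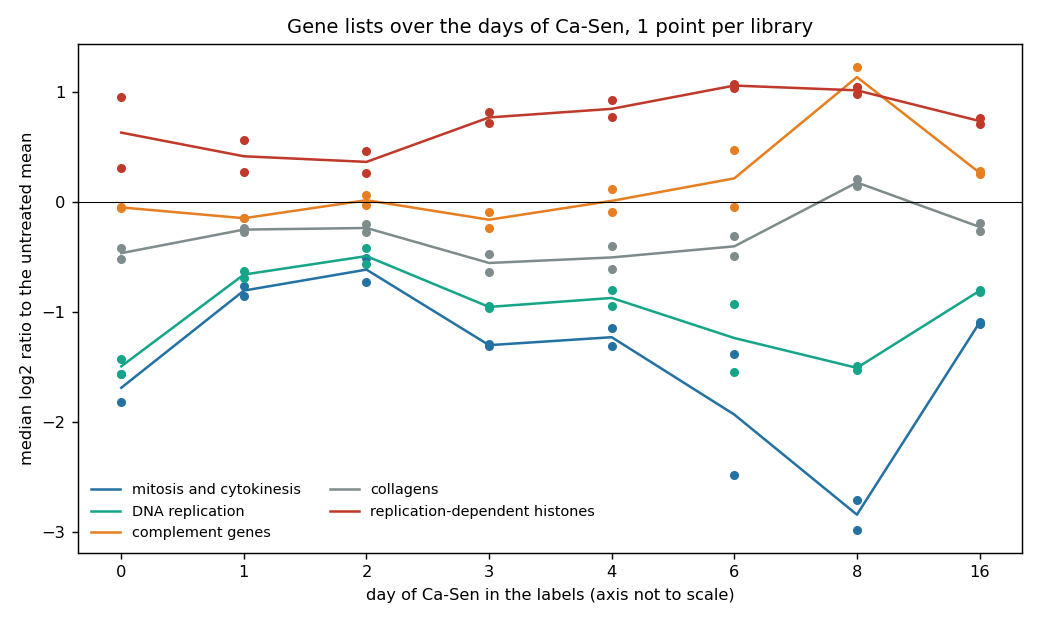
Median log2 ratio to the untreated mean over the genes of 5 lists in each Ca-Sen library, by day after the KCl pulse, with 1 point per library. The mitosis list lies lowest at day 8 (-2.71 and -2.98) and at -1.10 and -1.09 at day 16, and the 2 day 6 libraries lie apart (-1.38 and -2.48).

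Over the series of days the mitosis list had 28.4% and 33.8% of the untreated level at day 0, the end of the pulse, 60.6% and 70.6% at day 2, 40.3% and 45.2% at day 4 and 38.3% and 17.9% at day 6. The fall to day 8 and the higher level at day 16 followed. The day 6 libraries differed from each other by more than 1 on the log2 scale, and both lay below the day 4 and above the day 8 libraries. The DNA replication list had 67.6% and 75.0% at day 2, 35.6% and 34.8% at day 8 and 57.6% and 56.7% at day 16. No day between 8 and 16 was analysed here.

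Against PMD-Sen of the same day, 1464 of 14199 genes (10.3%) were called, 852 higher (6.00%) and 612 lower (4.31%) in Ca-Sen. The PMD-Sen libraries differed from each other, with mitosis genes at 19.9% and 9.6% of the untreated level. Mitosis genes were higher in Ca-Sen in 43 of 48 cases (median 1.67) and replication genes in 24 of 44 (median 0.66). LMNB1 was higher by 1.64 (SE 0.22, adjusted p = 0.0130) and CDKN2A lower by 0.40 on the log2 scale (SE 0.09, adjusted p = 0.0387). A2M had 3126 and 8675 normalised counts in PMD-Sen against 755 and 738 in Ca-Sen (-2.80, SE 0.40, adjusted p = 0.0140). Without either Ca-Sen library limma called 0 genes, with 2372 and 2186 genes at an unadjusted p under 0.05, and without PMD-Sen library a it called 3508.

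Against DDR-Sen of the same day, 3309 of 14257 genes (23.2%) were called, 1791 higher (12.6%) and 1518 lower (10.6%) in Ca-Sen, and 1090 and 1039 were called without Ca-Sen library a and b. All 48 mitosis genes (median 3.18) and 39 of 44 replication genes (median 1.04) were higher in Ca-Sen. CDC20, an activator of the anaphase-promoting complex, had 38.1 and 26.9 normalised counts in DDR-Sen and 643 and 734 in Ca-Sen (4.39, SE 0.17, adjusted p = 7.57e-06), and LMNB1 had 36.1 and 47.6 against 451 and 444 (3.40, SE 0.15, adjusted p = 1.02e-05). CCND2 was the reverse, with 6402 and 7034 in DDR-Sen against 2042 and 1847 in Ca-Sen (-1.79, SE 0.08, adjusted p = 1.02e-05). Among the other lists 10 of 15 histone genes and 9 of 12 complement genes were lower in Ca-Sen, and 33 of 46 ribosomal protein genes were higher (median 0.31). IGFBP2, which binds insulin-like growth factors, had 3261 and 4210 counts in DDR-Sen and 685 and 692 in Ca-Sen (-2.42, SE 0.20, adjusted p = 0.000173).

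CDKN1A could be read only as the mean of each pair in those groups, at 1.63-fold the untreated mean in PMD-Sen and 1.88-fold in DDR-Sen, beside 1.46-fold in Ca-Sen day 16, with no spread and no test. NFATC2, TRPV2 and EREG (epiregulin, a ligand of the EGF receptor) were among the named genes higher in Ca-Sen day 16 than in each of the other 3 groups. FOSB, IL11, HK2 and mitosis genes such as UBE2C were also higher in each of these comparisons. The log2 differences from Ca-Sen day 8, PMD-Sen and DDR-Sen were 3.36, 2.09 and 2.81 for NFATC2, 0.98, 0.78 and 0.85 for TRPV2 and 0.99, 1.00 and 0.95 for EREG. EREG had 691 and 688 normalised counts at Ca-Sen day 16 and 286 to 414 in the PMD-Sen and DDR-Sen libraries, but 1047 and 416 in RS. The 3 comparisons share the day 16 libraries, so these values are not independent of each other. The genes were named for their change against Untreated in those same libraries.

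**Figure D5:**
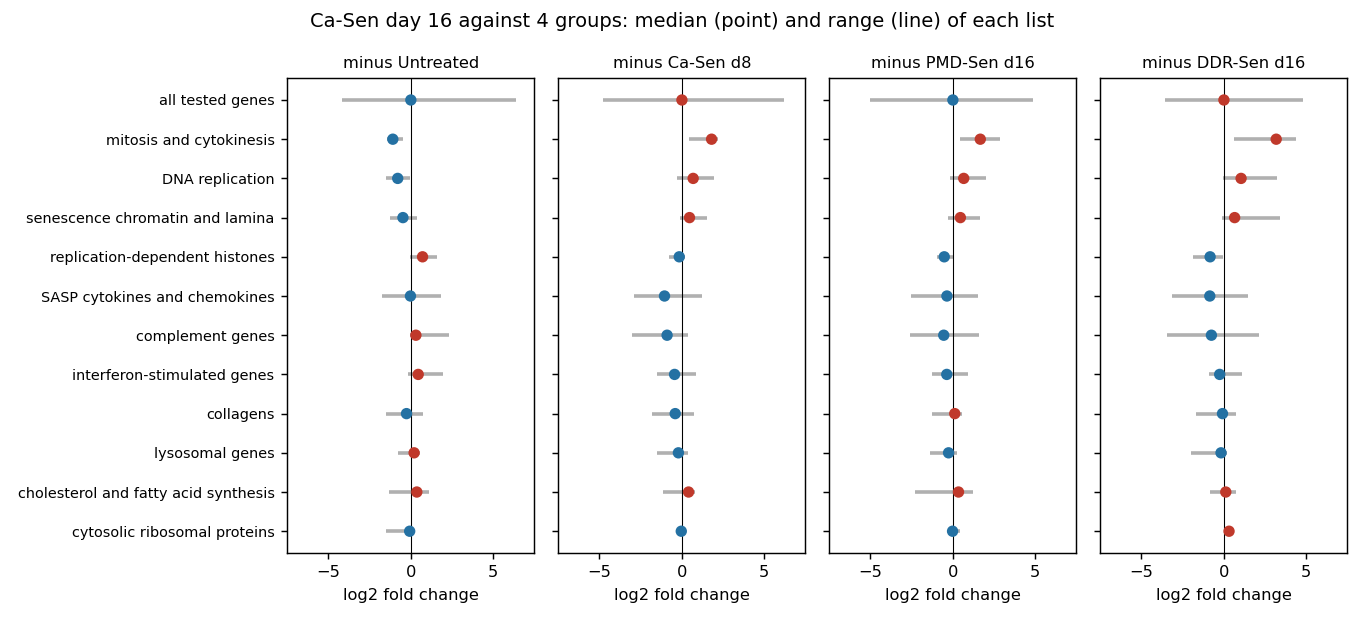
Median log2 fold change of Ca-Sen day 16 over Untreated, Ca-Sen day 8, PMD-Sen day 16 and DDR-Sen day 16 for each list, with the range over its genes. The mitosis list has medians of -1.09, 1.80, 1.67 and 3.18.

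In RS, which entered no test, the mitosis genes were at 6.8% and 3.0% of the untreated level and the replication genes at 27.4% and 24.0%. The order of the mitosis list by group was therefore Untreated, Ca-Sen day 16, Ca-Sen day 8 with PMD-Sen day 16, and DDR-Sen day 16 with RS. The libraries of Ca-Sen day 8 (15.3% and 12.7%) lay within the spread of those of PMD-Sen (19.9% and 9.6%), and those of DDR-Sen (6.1% and 4.4%) within the spread of RS, so these neighbours cannot be ordered.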

How the data were processed

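mRNA-seq libraries of WI-38 cells were paired-end; per the labels' processing notes the authors used Trim Galore, HISAT2, HTSeq, featureCounts and DESeq2 with GRCh38 (hg38), and versions and the annotation are not given in the sources used here. The deposited tables each hold 1 comparison with the untreated pair. The baseMean, the only column used, is a normalised signal that the authors made as the mean over 4 libraries of whole read counts divided by size factors. The other columns hold the authors' fold changes, errors and p-values, which were not used. A row that names no gene occurs in some tables and was dropped.

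Read counts per library were solved from the baseMean. A single read in a library is worth a fixed step, which was found from low genes. The untreated pair is shared by all tables, so its counts were solved jointly in disjoint sets of 5 tables and accepted only where both sets gave the same counts, and each treated pair was then found by enumeration. All 4 counts were solved for 14529 of 14530 genes (99.99%). When another pair was taken as shared, 0 of 300 trial genes could be solved, and the solving was also tested on simulated data. Genes of very high level were not solved in PMD-Sen and DDR-Sen, which left 14199 and 14257 genes. The library names a and b stand for the larger and the smaller size factor.

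limma 3.58.1 (R 4.3.3; lmFit, then eBayes with trend) was run on log2(normalised count + 1), without covariates, on all genes with a baseMean of at least 10. The day 8, PMD-Sen and DDR-Sen comparisons used the libraries of both groups and Untreated, but kept the gene filter of the Ca-Sen day 16 and Untreated comparison. p-values are two-sided and adjusted by the Benjamini-Hochberg method over all tested genes, and an adjusted p under 0.05 made a call. Fold changes are on the log2(value + 1) scale, which understates those of low genes. The fit was tested on simulated data. The members and gene lists were chosen with earlier results of these data known, so lists are described by counts and medians without a set test. Named genes were 8 genes of senescence and membrane repair, the 10 largest rises and falls with a baseMean of at least 100 and no overlap between groups, up to 6 called genes per list, the 5 largest rises and falls in each other comparison, and the uncalled CDK inhibitor and lamina genes; some of these genes and 1 list are not reported here. Alternatives were other filters, pseudocounts, scalings, limma voom, a shared spread over all Ca-Sen days, a fold threshold and leaving out each library. Copies of a gene, overlapping genes and antisense genes can share reads, and the strand setting of the counting is not given in the sources used here. RefSeq promoters were matched by symbol to 10380 of 14529 tested genes.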

Additional observations from a re-analysis of the deposited data

Results flagged for a closer look

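The KCl-treated cells of day 16 were tested directly against 3 other senescent groups, and all 3 tests found genes that differed. RS was not tested. Between Ca-Sen day 16 and Ca-Sen day 8, 4535 genes differed. Between Ca-Sen day 16 and PMD-Sen day 16, 1464 genes differed, and this count was 0 without either Ca-Sen library. Between Ca-Sen day 16 and DDR-Sen day 16, 3309 genes differed. In each of the 3 the mitosis genes were higher at Ca-Sen day 16, in 48, 43 and 48 of 48 genes. The share of cycling cells in the cultures was not tested. Groups of 2 libraries are too small for a check of single libraries that lie far from the rest.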

How the results depend on the processing

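No paired analysis was possible because the solved libraries carry no replicate number. The count of genes called against Untreated (2546) stayed between 2470 and 2629 with a baseMean of at least 100, pseudocounts of 0.5 and 5, library totals, upper-quartile scaling, limma voom and without 82 genes that varied within other pairs (a setting chosen after seeing the data). It was 3474 with a spread shared by all Ca-Sen days and 974 of 29709 genes with no filter. Requiring a log2 change of at least 1 left 404, 588, 348 and 690 genes against Untreated, Ca-Sen day 8, PMD-Sen and DDR-Sen. Leaving out 1 library in turn gave 581 to 3904 calls against Untreated, 1967 to 2528 against Ca-Sen day 8, 0 to 3508 against PMD-Sen and 1039 to 3129 against DDR-Sen. Of the calls without Ca-Sen library a or b, 568 and 601 were among the 2546. Of 209 named genes none reversed under the scalings, pseudocounts and filters. Genes that were not called changed sign when 1 library was left out, with log2 fold changes of -0.125 to 0.455 for ADAMTS15, -1.905 to 1.164 for CDKN1C and -0.342 to 0.294 for IL6, and IL6 was at 0.003 with limma voom. Genes with a baseMean under 10 were left out of the main test for their low depth.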

Other observations

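Of 33 growth factors and their binding proteins 9 were higher and 4 lower at Ca-Sen day 16 against Untreated (median 0.02), or 4 higher and 2 or 1 lower without Ca-Sen library a or b. The bone morphogenetic protein genes BMP4 and BMP2 were 1.96-fold and 1.53-fold higher (1026 and 662 against 1673 and 1640 normalised counts for BMP4, adjusted p = 0.00732). TGFB2 and NRG1 were 1.77-fold and 1.48-fold higher, and CCN1, a matricellular target of YAP, was 1.53-fold lower. Of 13 WNT pathway genes 1 was higher (7.7%) and 2 lower (15.4%), beside 8.58% and 8.94% of all tested genes. The lower count was 1 without either Ca-Sen library, and the higher count was 3 with limma voom, library totals or a baseMean of at least 100. WNT16 rose from 1065 and 1283 to 2137 and 2202 normalised counts (0.89, SE 0.09, adjusted p = 0.000864), while the WNT inhibitor gene DKK1 fell from 1725 and 1886 to 822 and 892 (-1.07, SE 0.08, adjusted p = 0.000277).

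Of 25 genes of glycolysis and hypoxia 5 were higher and 3 lower, or 1 or 3 higher and 1 lower without Ca-Sen library a or b. The hexokinase gene HK2 was 1.51-fold and the glucose transporter gene SLC2A1 1.42-fold higher, while PFKP and ENO1 fell by 0.49 and 0.36. Of 25 laminins and integrins 4 were higher and 5 lower, and none was called without either Ca-Sen library. Of 12 BCL2 family genes 1 was lower (MCL1, by 0.24), and 0 without either Ca-Sen library. Of 4 tested neuron markers none passed with limma, 2 had an unadjusted p under 0.05, and the summed level was 193 and 192 in Untreated and 250 and 276 at day 16.

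Of 14529 tested genes, 82 differed at least 4-fold between the paired libraries in 2 or more of the 8 groups that entered no test, and 15 of the 82 were called against Untreated. They were chosen after their values were seen. LSM14A and GTPBP6 did so in 5 of the 8 groups and SQSTM1 in 6. TINF2 ranged from 6.9 to 234 normalised counts over 26 libraries and GMPR2 from 26.5 to 529. U2AF1, at 248 and 263 counts in Untreated and 152 and 174 at day 16, was at 11.7 to 73.6 in the PMD-Sen and DDR-Sen libraries of the same day, and its copy U2AF1L5 can share its reads.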
